A study of Mus musculus with 27 samples.

Results

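The 6 genes described here encode positive transcription elongation factor b (P-TEFb) and the proteins of the 7SK complex that holds it inactive. They were taken by gene symbol from the deposited spike-in RNA table of 38582 genes (Cdk9, Ccnt1, Ccnt2, Hexim1, Larp7 and Mepce), and all 6 were present and passed the filter that left 12452 genes for testing. The study used mouse embryonic stem cells (ES cells), which can form all tissues of the body and were grown with 15% serum and leukemia inhibitory factor, to examine the RNA-binding protein WDR43. RNA was measured in 2 libraries of cells with knockdown of WDR43 (shWDR43, where sh stands for short hairpin RNA) and 2 with a control (shCtl), all labelled wild type. Chromatin immunoprecipitation sequencing (ChIP-seq) gave 17 peak lists. Of these, 12 mapped RNA polymerase II (Pol II) in 2 shWDR43 and 2 shCtl libraries for each of 3 antibodies. Antibody 8WG16 detects hypophosphorylated Pol II (hypoP), and the others detect its serine 5 (Ser5P, common near gene starts) or serine 2 phosphorylation (Ser2P, common in elongating Pol II). The other 5 lists mapped FLAG-tagged WDR43 in 1 library each: cells with Fbio-tagged WDR43 given DRB, ActD (actinomycin D, which blocks transcription) or the solvent DMSO, and libraries labelled FB-WDR43 and cFB-KI-WDR43, for which no genotype is labelled. The Ser5P libraries and the hypoP shCtl libraries are labelled wild type, while the Ser2P libraries and the hypoP shWDR43 libraries carry no genotype label. The labels give no dose or time for the inhibitors, and do not say whether numbers 1 and 2 of the Pol II libraries mark hairpins or cultures. The header of the RNA table calls its libraries biological replicates.

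P-TEFb is a kinase made of CDK9 and a cyclin T. It phosphorylates serine 2 of the Pol II tail, the elongation factor SPT5 and the negative elongation factor NELF, and so releases Pol II that has paused shortly after the start of a gene. Much of the P-TEFb of a cell is kept inactive by HEXIM1 on the small nuclear RNA 7SK, which MEPCE caps at its 5′ end and LARP7 binds at its 3′ end. DRB, used on the WDR43-tagged cells, inhibits CDK9. Hexim1 is also widely used as a gene whose RNA answers to P-TEFb activity.

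The promoters of 4 members are shown because the WDR43 and Pol II peaks described further on cover the starts next to them, and because they pair the genes with the largest RNA falls (Ccnt2 and Larp7) with the kinase (Cdk9) and its inhibitor (Hexim1). Each is the 250 bases before the annotated start, from RefSeq on build GRCm38.p6, 5′ to 3′ in the direction of transcription. Capitals mark matches, on either strand, to the GC box (GGGCGG), the CCAAT box (CCAAT), the cAMP response element (TGACGTCA) or an ETS core (CCGGAAG).
Cdk9, chr2:32712785-32713034, minus strand: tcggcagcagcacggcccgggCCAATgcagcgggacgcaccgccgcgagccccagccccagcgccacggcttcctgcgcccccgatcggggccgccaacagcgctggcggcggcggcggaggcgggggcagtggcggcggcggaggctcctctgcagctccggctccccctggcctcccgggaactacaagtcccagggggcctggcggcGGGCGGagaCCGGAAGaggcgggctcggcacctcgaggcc
Ccnt2, chr1:127773914-127774163, plus strand: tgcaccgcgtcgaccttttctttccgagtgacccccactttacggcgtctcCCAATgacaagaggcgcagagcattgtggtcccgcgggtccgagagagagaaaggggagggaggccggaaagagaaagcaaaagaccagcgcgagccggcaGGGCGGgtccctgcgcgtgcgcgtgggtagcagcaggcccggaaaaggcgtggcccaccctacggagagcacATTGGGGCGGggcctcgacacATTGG
Hexim1, chr11:103116075-103116324, plus strand: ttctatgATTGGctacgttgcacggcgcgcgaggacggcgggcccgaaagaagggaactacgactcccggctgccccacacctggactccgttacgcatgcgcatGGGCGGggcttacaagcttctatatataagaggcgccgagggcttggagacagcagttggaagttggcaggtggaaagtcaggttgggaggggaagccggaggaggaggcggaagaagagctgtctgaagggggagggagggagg
Larp7, chr3:127553350-127553599, minus strand: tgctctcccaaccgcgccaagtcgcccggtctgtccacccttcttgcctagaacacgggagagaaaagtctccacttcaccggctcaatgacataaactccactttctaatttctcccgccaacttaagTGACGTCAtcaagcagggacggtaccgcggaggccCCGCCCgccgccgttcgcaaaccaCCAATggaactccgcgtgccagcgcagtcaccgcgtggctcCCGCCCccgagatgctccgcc

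Entries were found for 5 of the 6 members, all but Mepce. These 5 windows were rich in G and C, from 61.2% in Hexim1 to 78.8% in Cdk9, against a median of 52.4% over the 32851 windows of the table. They held 18 (Hexim1) to 32 (Cdk9) CpG dinucleotides, against a median of 6. A GC box stood in all 5 and in 32.7% of all windows. A CCAAT box stood in 4, all but Ccnt1, and in 33.8% of all windows. In Ccnt2, with 3 CCAAT boxes, a copy on the other strand shares a base with a GC box. The cAMP response element stood only in Larp7 among the 5 (1.55% of all windows) and the ETS core in Cdk9 and Ccnt1 (6.91% of all windows). The exact letters of the TATA box (TATAAA, 12.4% of all windows) and the E-box (CACGTG, 6.02%) matched in none of the 5. The Hexim1 window holds tatataag, a similar stretch that the exact search did not count. These matches describe letters, not bound sites.

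Several values for all libraries frame the members. Wdr43 RNA stood at 21.2 and 20.7 FPKM (fragments per kilobase of transcript, on the authors' spike-in scale) in shWDR43, against 82.3 and 78.2 FPKM in shCtl, which is -1.89 ± 0.12 on the log2 scale (SE of the shWDR43 over shCtl change in limma, with Benjamini-Hochberg adjustment p = 0.000751). In shWDR43, 42.7% of the 12452 tested genes fell and 6.10% rose, with a median log2 fold change of -0.39. Since these are bulk samples, less RNA per cell and fewer cells of a type cannot be told apart. Of the 10 stem cell markers all 10 were tested and 9 were lower, and their summed level was 2603 to 2770 FPKM in shWDR43 and 5078 to 5184 FPKM in shCtl. The 7 fibroblast markers summed to 35.6 to 61.6 FPKM in shWDR43 and 29.2 to 40.4 FPKM in shCtl, with Lum and Dcn at 0 in all 4 libraries. Nearly all of that sum was Col1a1, at 17.9 and 30.9 FPKM in shWDR43 and 12.3 and 18.4 FPKM in shCtl, and Col1a2, at 16.4 and 28.8 FPKM in shWDR43 and 12.9 and 16.1 FPKM in shCtl. Neither passed the threshold on the spike-in scale, Col1a2 was higher after centring, and Thy1 was lower on both scales. The 5 trophectoderm markers summed to 16.4 to 23.5 FPKM in shWDR43 and 9.5 to 10.4 FPKM in shCtl. Nearly all of that was Krt7, Krt8 and Krt18, while Cdx2 and Elf5 stood at 0.3 FPKM or less in each library. Krt7 and Krt8 were higher on the spike-in scale, and Krt18 only after centring. The 5 endoderm markers summed to 4.2 to 4.3 FPKM in shWDR43 and 2.7 to 2.9 FPKM in shCtl. Gata4, Gata6 and Sox17 lay higher in both shWDR43 libraries, and only Gata6 passed on the spike-in scale. Sox7 lay lower, at 0.3 and 0.4 FPKM in shWDR43, against 0.8 and 1.2 FPKM in shCtl. Foxa2 stood at 0.1 FPKM or less. The 3 neural markers summed to 6.2 to 6.3 FPKM in shWDR43 and 7.7 to 9.1 FPKM in shCtl, and the 3 mesoderm markers to 1.7 to 1.9 FPKM in shWDR43 and 3.0 FPKM in each shCtl library. The part of these shifts in the members' values was not tested.

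On the spike-in scale 4 of the 6 members were lower in shWDR43 and none was higher. The falls were largest for Ccnt2 and Larp7, smaller for Mepce and Cdk9, and Ccnt1 and Hexim1 did not pass the threshold (limma, Benjamini-Hochberg adjusted p under 0.05 over all tested genes). The 4 of 6 stand beside the 42.7% of all tested genes that were lower, and the members' median log2 fold change was -0.51 beside -0.39 for all. Both shWDR43 libraries lay below both shCtl libraries for the same 4 members, as they did for 63.6% of all tested genes. With any library left out, a group holds 1 library, so those fits were read for effect size only. The log2 fold changes then ran from -0.96 to -0.80 for Ccnt2 and from -1.04 to -0.50 for Larp7. They ran from -0.60 to -0.46 for Mepce and from -0.53 to -0.47 for Cdk9. Without the filter on low values, with every listed gene in the fit, 0 members passed. In that fit 633 of all 38582 genes were lower, so the loss of calls was not particular to the members.

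**Figure D1:**
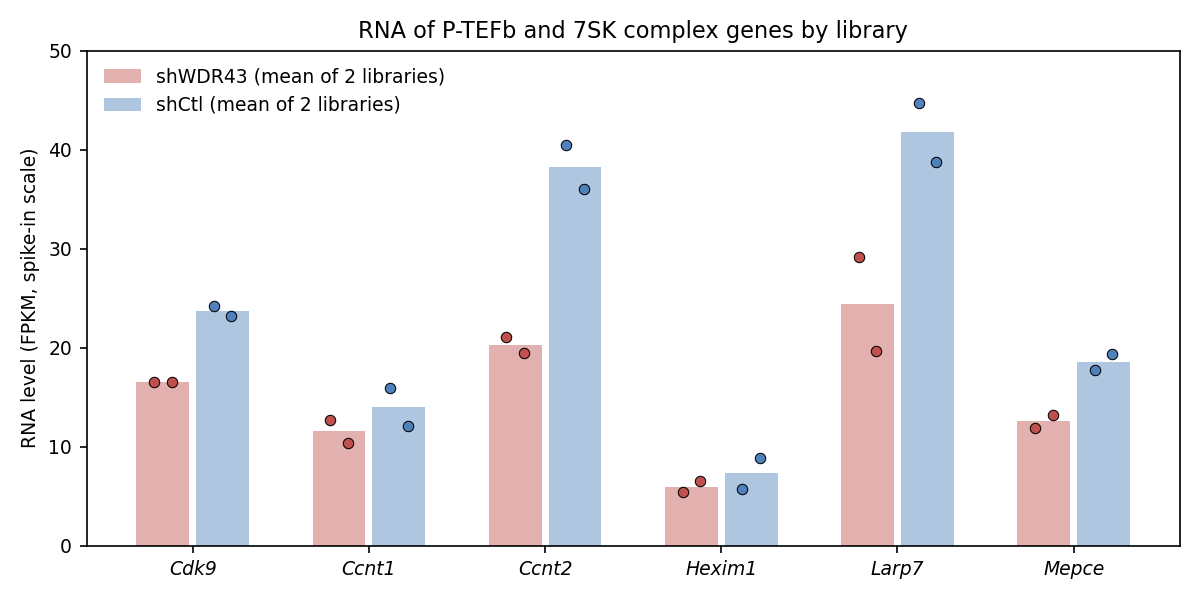
RNA level in FPKM (vertical axis) of the 6 members, with bars at the mean of 2 libraries and points for the libraries, shWDR43 left and shCtl right. The points of Cdk9, Ccnt2, Larp7 and Mepce do not overlap between groups, and those of Ccnt1 and Hexim1 do.

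Cdk9 (NM_130860, mm9 chr2:32561302-32568304), the kinase subunit, stood at 16.5 and 16.5 FPKM in shWDR43, against 24.2 and 23.2 FPKM in shCtl. The shWDR43 libraries were equal to the decimal deposited and lay below both shCtl libraries. The log2 fold change was -0.50 ± 0.13 (SE, limma, adjusted p = 0.0167), a level 1.44-fold lower.

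Cyclin T2 changed most of all members. Ccnt2 (NM_028399, mm9 chr1:129670741-129701414) stood at 21.1 and 19.5 FPKM in shWDR43, against 40.5 and 36.0 FPKM in shCtl. The groups were well apart, and the level was 1.88-fold lower. On the log2 scale the change was -0.88 ± 0.13 (SE, limma, adjusted p = 0.00287). This change stood at the 14.6th percentile of all tested genes, counted from the largest fall. Cyclin T1, the other partner of CDK9, gave a smaller difference. Ccnt1 (NM_009833, mm9 chr15:98373642-98398067) stood at 12.7 and 10.4 FPKM in shWDR43, against 15.9 and 12.1 FPKM in shCtl. Its groups overlapped, since shWDR43 library 1 lay above shCtl library 2. The log2 fold change was -0.25 (95% interval -0.67 to 0.16, limma adjusted p = 0.266), so neither no change nor a fall of the size seen in Cdk9 lay outside the interval. It was -0.068 without shCtl library 1, -0.12 without shWDR43 library 2, -0.38 without shWDR43 library 1 and -0.44 without shCtl library 2.

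Among the 7SK proteins, Larp7, which binds and stabilises the 3′ end of 7SK, fell most. Larp7 (NM_138593, mm9 chr3:127239632-127256267) stood at 29.2 and 19.7 FPKM in shWDR43, against 44.7 and 38.8 FPKM in shCtl. Both shWDR43 libraries were low, but they differed more from each other, as a ratio, than the shWDR43 libraries of any other member. The level was 1.71-fold lower, a change of -0.77 ± 0.20 on the log2 scale (SE, limma, adjusted p = 0.0174). Without shWDR43 library 1 the log2 fold change was -1.04, and without shWDR43 library 2 it was -0.50.

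Mepce, the methyltransferase that caps 7SK, fell less. Mepce (NM_144913, mm9 chr5:138223134-138227929) stood at 11.9 and 13.2 FPKM in shWDR43, against 17.7 and 19.4 FPKM in shCtl. All shWDR43 values lay below all shCtl values, and the log2 fold change was -0.53 ± 0.14 (SE, limma, adjusted p = 0.0175), a level 1.48-fold lower.

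Hexim1, the inhibitor that binds P-TEFb on 7SK, was the member with the lowest level. Hexim1 (NM_138753, mm9 chr11:102977639-102981038) stood at 5.4 and 6.5 FPKM in shWDR43, against 5.7 and 8.9 FPKM in shCtl. Its groups overlapped, and the log2 fold change was -0.23 (95% interval -0.73 to 0.26, limma adjusted p = 0.384). The value rests on shCtl library 2, without which it was 0.048. A noncoding locus without a gene name, XLOC_004503 (mm9 chr11:102977344-102994149), covers all 3400 bases of the Hexim1 locus. It stood at 33.4 and 31.4 FPKM in shWDR43, against 40.4 and 39.8 FPKM in shCtl (log2 fold change -0.30, limma adjusted p = 0.0816). The counting is not stated to use strand, so reads of Hexim1 and of this locus cannot be told apart, and the level of Hexim1 is uncertain.

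**Figure D2:**
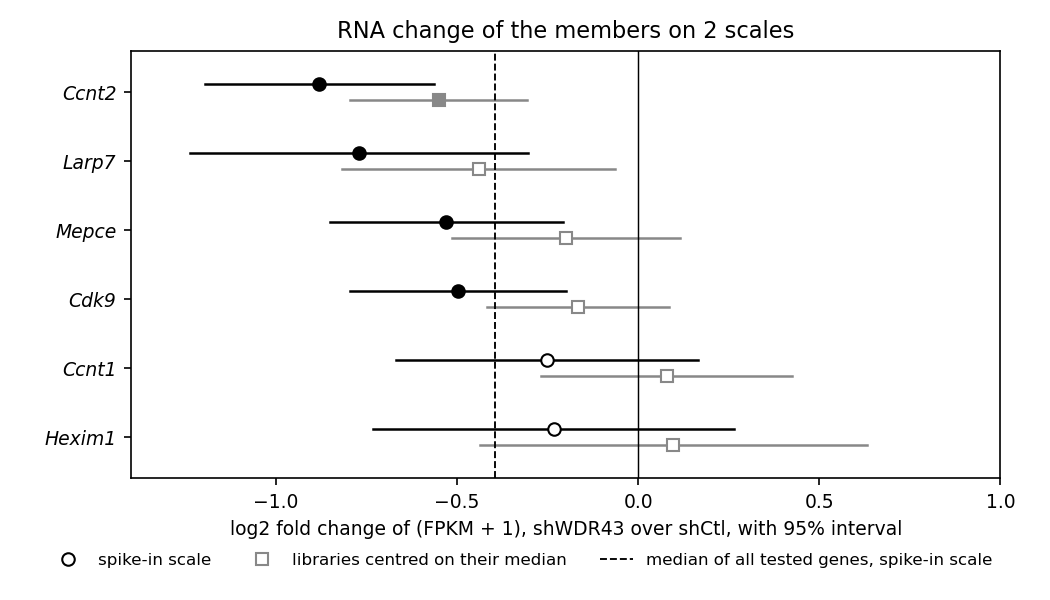
Log2 fold change of FPKM + 1 (horizontal axis), shWDR43 over shCtl, with 95% intervals from limma, on the spike-in scale (circles) and with libraries centred on their median (squares). Filled symbols passed an adjusted p under 0.05, and the dashed line is the median of all tested genes, -0.39. The 4 circles of Ccnt2, Larp7, Mepce and Cdk9 are filled, and of the squares only that of Ccnt2 is.

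How many members were called lower depended on the scale, though their order among all tested genes did not. When each library was centred on its median, which moves every log2 fold change by 0.33, Ccnt2 was the only member still lower (-0.55, limma adjusted p = 0.00840). After this centring Larp7 stood at -0.44 (adjusted p = 0.0730), Mepce at -0.20 (adjusted p = 0.286) and Cdk9 at -0.17 (adjusted p = 0.262, all limma). Ccnt1 turned to 0.078 and Hexim1 to 0.10. The 1 of 6 stands beside 20.9% of all genes lower after centring, and none of 6 beside 13.0% higher. The spike-in scale itself cannot be checked here, since no spike-in values stand in the table.

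In level, the order of the members was the same in both groups. Larp7 and Ccnt2 led, then came Cdk9, Mepce, Ccnt1 and Hexim1. In shWDR43 the ranges of Larp7 (19.7 to 29.2 FPKM) and Ccnt2 (19.5 to 21.1 FPKM) overlapped, as did those of Mepce and Ccnt1. In shCtl only the ranges of Larp7 (38.8 to 44.7 FPKM) and Ccnt2 (36.0 to 40.5 FPKM) overlapped among neighbours in the order. Among the tested genes, Larp7 stood at the 81.9th percentile of level in shWDR43 and the 84.5th in shCtl, and Hexim1 at the 45.2nd percentile in shWDR43 and the 44.3rd in shCtl.

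Ratios of members within a library do not depend on the spike-in scale. With 2 libraries a group an exact permutation test cannot give a p below 0.333, so these are values whose groups do or do not overlap. The ratio of Ccnt2 to Ccnt1 was 1.66 and 1.88 in shWDR43, against 2.55 and 2.98 in shCtl. The groups were apart, with a log2 difference of -0.64 (exact two-sided permutation p = 0.333), so cyclin T RNA held relatively less Ccnt2 in both shWDR43 libraries. The summed cyclins stood at 2.05 and 1.81 times the level of Cdk9 in shWDR43, against 2.33 and 2.07 times in shCtl. Here the groups lay close but did not overlap (log2 difference -0.19, exact p = 0.333). The ratio of Hexim1 to Cdk9 was 0.327 and 0.394 in shWDR43, against 0.236 and 0.384 in shCtl, with overlapping groups. The ratio of the 7SK proteins Hexim1, Larp7 and Mepce to Cdk9 with both cyclins was 0.924 and 0.849 in shWDR43, against 0.845 and 0.941 in shCtl (log2 difference -0.01, exact p = 1). In every library it stood a little below 1, and the groups overlapped.

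Genes that act with P-TEFb were followed as 4 lists. Of the 10 tested 7SK-binding and release factors, 9 were lower and none was higher, and the list's median log2 fold change was -1.07, beside 42.7% lower and a median of -0.39 among all tested genes. The splicing factor Srsf2 (-1.21), which also binds 7SK, and the phosphatase Ppm1g (-1.15), which helps to free P-TEFb from 7SK, fell most. The RNA-binding protein gene Hnrnpr (-0.53) was lower, and Jmjd6 (-0.20, 0.13 after centring), a demethylase linked to pause release, did not pass. After centring 7 of these 10 were lower, beside 20.9% of all tested genes. Rn7sk, the 7SK RNA itself, is not analysed here. Hexim2, the paralog of Hexim1, stood at 1.8 and 1.8 FPKM in shWDR43, against 2.8 and 4.5 FPKM in shCtl, and was lower (-0.71, limma adjusted p = 0.0329), but not after centring (-0.38, adjusted p = 0.240). It was named after its values were seen. Among all tested genes, the 7 factors lower after centring stood at the 93.5th to 99.1st percentile of level in shCtl. Jmjd6 stood at the 81.5th percentile, Hnrnpr at the 62.3rd and Hexim2 at the 26.4th. The part of RNA level in the falls of this list was not tested.

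Of the factors that recruit P-TEFb and of the super elongation complex, 6 of 9 tested genes were lower and none higher, with a median of -0.60. The share of all tested genes that were lower, 42.7%, applies here and to the next lists. After centring 1 of the 9 was lower (Ell2) and 1 was higher (Aff1), beside 20.9% lower and 13.0% higher among all tested genes. The elongation factor Ell2 (-0.79) and the scaffold Aff4 (-0.66), which binds cyclin T, fell most. Ell3 stood at 0.23 and Ell at 0.07, and neither passed. Eaf2 did not pass the filter on low values. Of the pausing factors and substrates of P-TEFb, 4 of 7 were lower and none higher, with a median of -0.52, and after centring 1 was lower (Nelfe) and 1 higher (Polr2a). The NELF subunit Nelfe (-0.68) and the SPT4 gene Supt4a (-0.55) were lowest. The call of Supt4a did not hold after centring (limma adjusted p = 0.242) or without the intensity trend (adjusted p = 0.0521). The largest Pol II subunit Polr2a (0.12) and Supt5 (-0.19, 0.14 after centring) did not pass, and Polr2a was higher after centring (0.45). Of 10 other transcriptional kinases and cyclins, 7 were lower and none higher, with a median of -0.53, and after centring 3 were lower. The Mediator kinase Cdk8 (-1.04) and Mnat1 (-0.81), of the CDK-activating kinase, were lowest, and Cdk19 (-0.18, 0.15 after centring) and Ccnk (-0.22, 0.11 after centring), a cyclin of CDK12 and CDK13, did not pass.

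**Figure D3:**
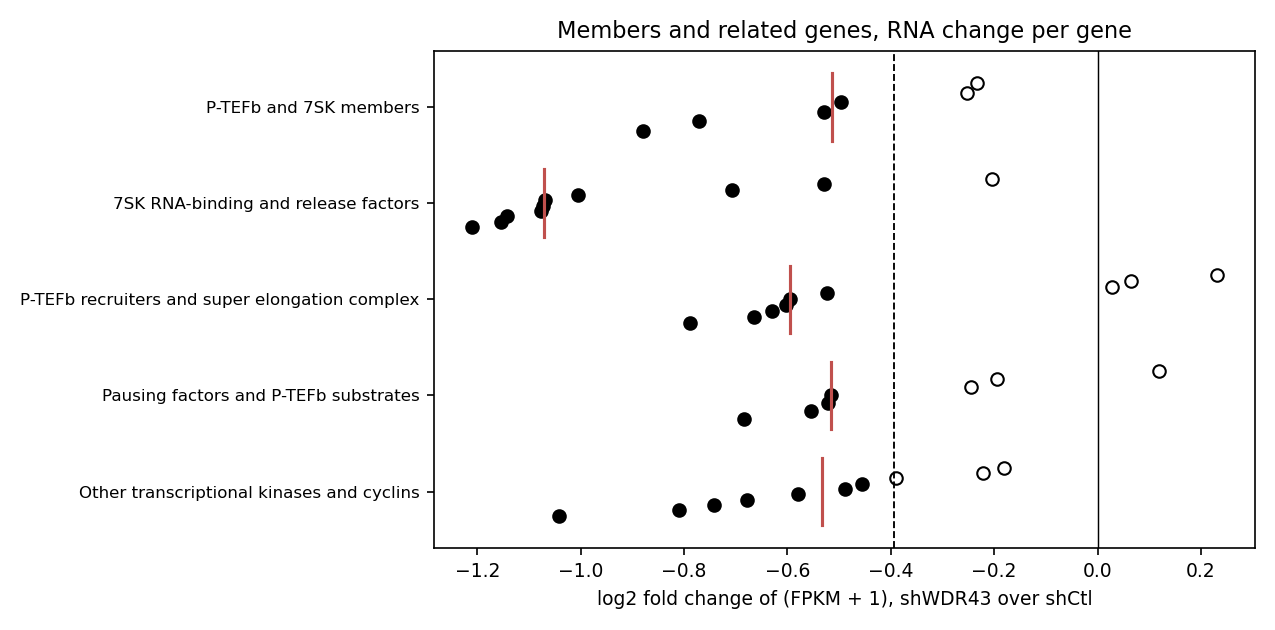
Log2 fold change of FPKM + 1 (horizontal axis), shWDR43 over shCtl, for each tested gene of 5 lists. Filled points passed an adjusted p under 0.05 in limma, red lines are list medians and the dashed line is the median of all tested genes, -0.39. The 7SK-binding and release factors have the lowest median, -1.07.

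Tagged WDR43 was called at all 6 member loci in the FB, cFB-KI and DMSO lists. A peak counted when it lay inside the locus or within 1 kb of it. Of the 10670 tested protein-coding loci, 90.3% had such a peak in the FB list, 87.3% in the cFB-KI list and 78.7% in the DMSO list, so 6 of 6 is near the background. All 3 lists together held a peak at 72.2% of these loci. For the 5 members with a strand in RefSeq, a peak covered the annotated start base in each of these 3 lists. Cdk9 held the highest-ranked peak among the members in the FB list (chr2:32567672-32569288, score 512) and in the cFB-KI list (chr2:32567362-32569560, score 304), at the 95.2nd and the 94.4th percentile of its list. Scores are the authors' own values and were compared within a list only. The Larp7 peak led among the members in the DMSO list (chr3:127255922-127256357, score 193, 91.8th percentile). At Mepce the peaks lay at the higher-coordinate end, for example chr5:138226898-138227637 in the FB list. Some starts are close to other loci: 4930422G04Rik lies 139 bases from Larp7, 2900009J06Rik lies 109 bases from Ccnt2 and 9330020H09Rik overlaps Ccnt1 by 313 bases. The noncoding XLOC_004503 covers the whole Hexim1 locus, and Zcwpw1 lies 1100 bases from the higher-coordinate end of Mepce. At Mepce a cFB-KI peak (chr5:138228363-138229735), an FB peak (chr5:138228794-138229241) and a DMSO peak (chr5:138228894-138229213) reach into Zcwpw1. The hypoP peaks of Mepce in both shWDR43 libraries reach into it too. A peak at these places cannot be given to 1 gene.

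**Figure D4:**
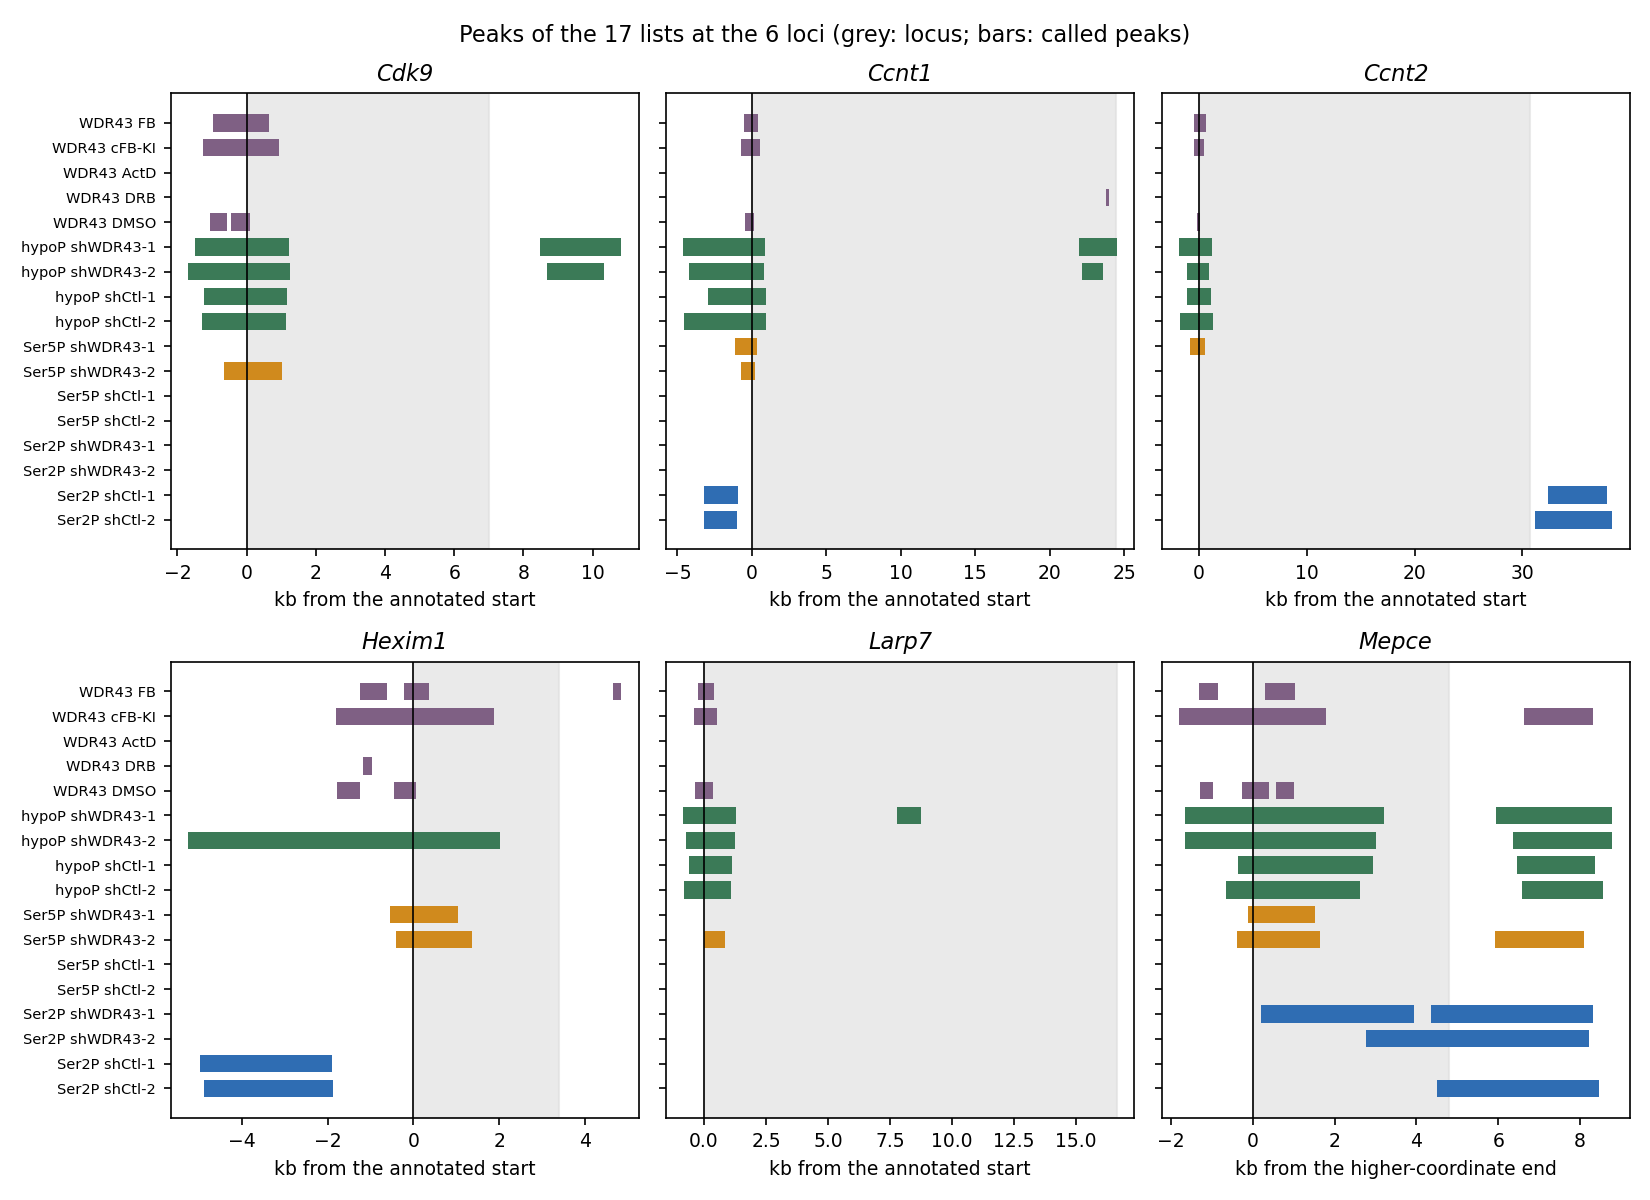
Peaks of the 17 lists (rows) at the 6 member loci, by distance in kb from the annotated start, or from the higher-coordinate end for Mepce. Grey marks the locus, and bars are called peaks within 2 kb of it (purple WDR43, green hypoP, orange Ser5P, blue Ser2P). Most WDR43 and hypoP peaks lie at the starts, Ser5P peaks stand in shWDR43 rows only, and Ser2P peaks lie outside the locus except at Mepce.

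In cells given the inhibitors few WDR43 peaks were called at these genes. The DRB list had a peak at 2 of 6 loci and the ActD list at none, against 6 of 6 in the DMSO list. Over all tested protein-coding loci a peak was called at 13.2% under DRB, 0.665% under ActD and 78.7% under DMSO. Neither DRB peak overlapped a DMSO peak, though at Hexim1 a DMSO peak (chr11:102975854-102976403, score 59.4) ended close before the DRB peak. The DRB peak of Ccnt1 (chr15:98374114-98374253, score 52.1) lay at the 3′ end of the locus, far from its start. The DRB peak of Hexim1 (chr11:102976468-102976670, score 62.0) ended 968 bases before the locus, and overlapped peaks of the FB and cFB-KI lists. The inhibitor lists are 1 library each, of 4426 peaks (DRB), 407 peaks (ActD) and 31189 peaks (DMSO), and the spread between replicates is unknown for them.

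HypoP Pol II was called at all members but Hexim1 in every library, and over the start of the 4 of these that have a strand. Peaks stood at 5 and 6 of 6 loci in shWDR43 libraries 1 and 2, against 5 and 5 in shCtl. The background was 95.2% and 93.2% of tested protein-coding loci in shWDR43, against 90.0% and 90.0% in shCtl. No member had a hypoP peak in both shWDR43 lists and in neither shCtl list, as 2.49% of those loci did. By rank within each list, the start peak of Cdk9 stood at the 91.9th and 84.2nd percentile in shWDR43, against the 82.6th and 77.5th in shCtl. For Ccnt1 the percentiles were 71.8 and 73.1 in shWDR43, against 81.8 and 57.7 in shCtl. Ccnt2 peaks stood at the 90.7th and 93.2nd percentile in shWDR43, against the 90.9th and 85.0th in shCtl. Larp7 peaks stood at the 93.6th and 92.1st percentile in shWDR43, against the 84.1st and 83.0th in shCtl. At Mepce they stood at the 83.3rd and 85.2nd percentile in shWDR43, against the 93.8th and 93.9th in shCtl. The percentiles did not overlap between groups for Cdk9 and Larp7, higher in shWDR43, and for Mepce, lower in shWDR43. These lists differ in length, so the ranks cannot tell whether Pol II at these loci changed. Hexim1 had no hypoP peak in shWDR43 library 1 or in either shCtl library, and in shWDR43 library 2 a peak of 7271 bases reached over it (chr11:102972377-102979647, 43.8th percentile).

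At the 3′ ends of Cdk9 and Ccnt1, hypoP peaks were called in both shWDR43 libraries and in neither shCtl library, a pattern picked out after the values were seen. The Ccnt1 peaks were chr15:98373558-98376098 and chr15:98374517-98375892. Those of Cdk9 lay 1485 and 1687 bases past the locus. Of 8083 tested protein-coding loci with a strand, 2.35% had a peak within 2 kb of the 3′ end in both shWDR43 lists and in neither shCtl list, and 0.186% had the reverse. The shWDR43 lists were longer, with 31473 and 24485 peaks, against 19542 and 19561 in shCtl.

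Ser5P Pol II was called at members in shWDR43 only. Peaks stood at 4 and 5 of 6 loci in shWDR43 libraries 1 and 2, and at 0 and 0 in shCtl. Over all tested protein-coding loci the shares were 32.8% and 38.0% in shWDR43, against 10.8% and 14.0% in shCtl, with 6535 and 7589 peaks called in shWDR43 and 1879 and 2520 in shCtl. Ccnt1, Hexim1 and Mepce had a peak in both shWDR43 lists and in neither shCtl list, as did 12.1% of tested protein-coding loci. Ccnt2 had a peak in shWDR43 library 1 only, and Cdk9 and Larp7 in library 2 only. The scores ran from 59.2 at Mepce and 59.5 at Ccnt2 to 89.4 at Cdk9 and 95.4 at Mepce. The lists begin at a score of 50, and their medians were 68.95 and 70.82 in shWDR43 libraries 1 and 2. By rank the members' peaks stood at the 29.0th to 44.0th percentile in library 1 and the 39.5th to 77.6th in library 2. None of these peaks had a score of at least 100, and the part of the shorter shCtl lists in this difference was not tested.

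Ser2P, the mark that P-TEFb places, was called at few of these loci in any library. Peaks stood at 1 and 1 of 6 loci in shWDR43, against 1 and 2 in shCtl, beside 26.2% and 26.4% of tested protein-coding loci in shWDR43 and 29.1% and 31.4% in shCtl. At 1 kb no member had a Ser2P peak in both lists of one group and in neither of the other, a pattern of 1.35% of those loci for shWDR43 and 3.28% for shCtl. Mepce had a Ser2P peak in both shWDR43 libraries (chr5:138219613-138223562, score 209, and chr5:138219708-138225153, score 111), against shCtl library 2 only (chr5:138219457-138223436, score 113). These peaks also cover Ppp1r35, whose locus lies 1798 bases from Mepce. Another peak in shWDR43 library 1 (chr5:138223998-138227735, score 60.4) lay within the Mepce locus. No Ser2P peak lay at Cdk9 or Larp7 in any of the 4 libraries. The shCtl counts turn on the 1 kb limit. A peak before the start of Ccnt1, inside the locus of 9330020H09Rik, lay 946 bases from Ccnt1 in shCtl library 1 and 1010 bases in library 2. A peak past the 3′ end of Ccnt2 began 1750 bases from the locus in shCtl library 1 and 548 bases in library 2, and peaks 1901 and 1875 bases before Hexim1 were also called in both shCtl libraries. With a limit of 2 kb, 1 and 1 of 6 loci had a Ser2P peak in shWDR43, against 3 and 4 in shCtl. The background at 2 kb was 29.0% and 28.8% of tested protein-coding loci in shWDR43, against 31.6% and 34.2% in shCtl. Ccnt1, Ccnt2 and Hexim1 then had a peak in both shCtl lists and in neither shWDR43 list, a pattern noted after the values were seen that 3.36% of those loci share. The shWDR43 lists were the shorter ones, with 3501 and 3504 peaks, against 3878 and 4319 in shCtl.

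**Figure D5:**
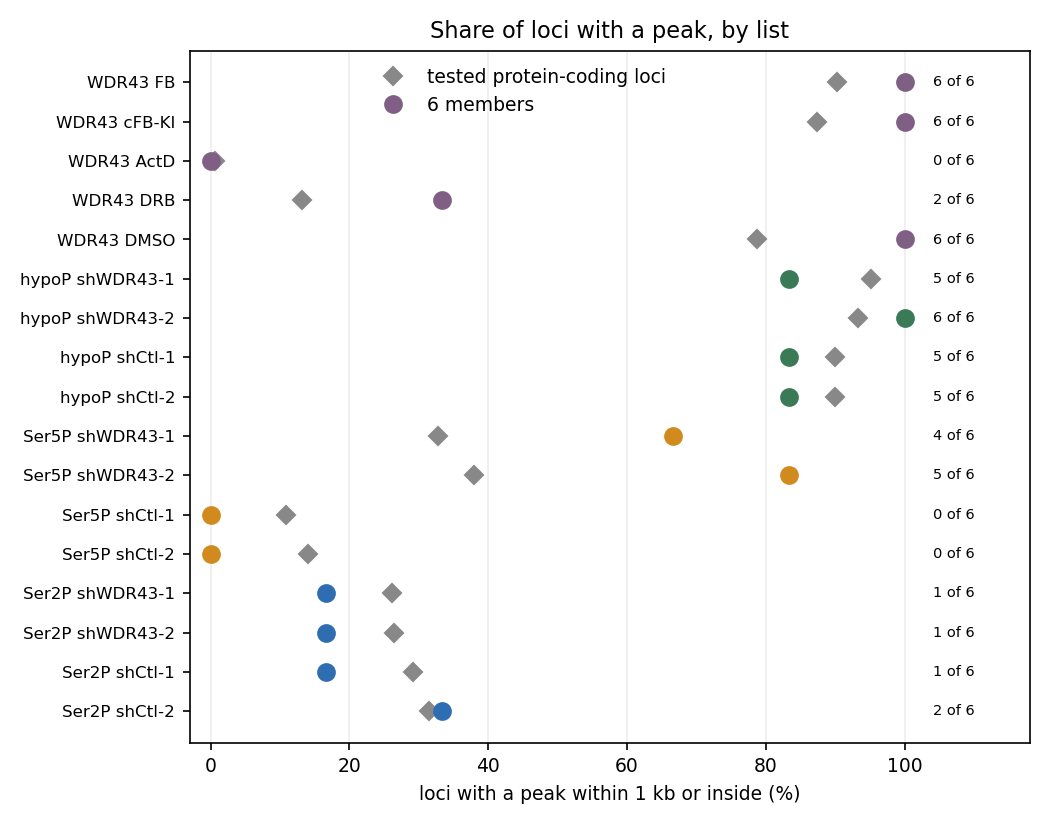
Share of loci with a peak inside or within 1 kb (horizontal axis, %), for the 6 members (circles) and the 10670 tested protein-coding loci (grey diamonds) in each of the 17 lists. Circles at Ser5P lie above the diamonds in shWDR43 (4 and 5 of 6) and at 0 in shCtl.

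For each member the gene most like it was sought, first by peak presence over the 17 lists and then by the distance of log2(FPKM + 1) over the 4 RNA libraries. Cdk9 was closest to Clic4 (0 of 17 mismatches, distance 0.12), at 17.8 and 16.7 FPKM in shWDR43 and 24.9 and 22.5 FPKM in shCtl. Larp7 was closest to Ddx42 (0 mismatches, distance 0.30), Ccnt2 to Pprc1 (0 mismatches, distance 0.44) and Mepce to Hagh (0 mismatches, distance 0.26). Ccnt1 was closest to Micu2 (0 mismatches, distance 0.57). Micu2 stood at 14.0 and 10.4 FPKM in shWDR43 and 11.1 and 9.8 FPKM in shCtl, so a match by these measures need not change alike. Hexim1, without a hypoP peak in 3 of 4 libraries, had no other tested gene with its own pattern and was closest to Trappc9 (2 mismatches, distance 0.99). Cdk9 and Larp7 had the same peak pattern, which each shared with 550 genes, and Ccnt1 shared its pattern with 7.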

How the data were processed

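RNA values are FPKM, scaled by the authors with spike-in RNA per the deposited table's title. The unit was inferred from TopHat and Cufflinks, named in the submitters' processing notes with build mm9. Neither the scaling steps nor the read depth is given in the labels or headers. ChIP reads were aligned with Bowtie2 to mm9 per the same notes. The authors deposited 17 peak lists, 1 per library, with a score per peak (peaks are named after MACS in the files), and depth is unknown. The deposited table also holds the authors' fold change of group means, with 0.1 added per the file headers, and an unadjusted p-value. Their folds are given once, and their p-values were not used.

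Genes whose mean reached 1 FPKM were fitted with limma 3.58.1 (R 4.3.3, intensity trend) on log2(FPKM + 1), which understates changes of low genes. P-values were adjusted by Benjamini-Hochberg over 12452 genes. The fit was tested on simulated data in which few genes changed and all shared a common spread. The data here differ in both, so that test says little about these calls. Limma p-values rest on the spread between 2 libraries per group, moderated toward a trend with level that is shared over all tested genes. Loci were read as 0-based on mm9 and printed 1-based. Strand and promoters came from RefSeq (GRCm38.p6), and no coordinates were converted. Of 27 samples, 6 were not analysed here. Members and lists were chosen with earlier results of these data known. The text names Wdr43, all members, the 2 highest and 2 lowest genes of each list and the gene most like each member. Outside that rule it also names cell type markers, loci close to members, Rn7sk, Hexim2, Aff1 and Eaf2.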

Additional observations from a re-analysis of the deposited data

How the results depend on the processing

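The 4 lower members (Ccnt2, Larp7, Mepce and Cdk9) passed with a pseudocount of 0.1, without the intensity trend and with the replicate block, and no member was higher under any setting. With the replicate block 5926 genes were lower and 840 higher; same-numbered libraries deviated together with a correlation of 0.05, so the numbers were not taken to pair the libraries, and the block changed no member's call. Leaving out any of the 4 libraries left 0 lower and 0 higher genes in limma, in all tested genes and in each list, where 3 libraries remained; by unadjusted p (0.05) the fits held 3928 to 4902 lower and 576 to 730 higher genes, and 2 to 4 lower members.

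Without the filter on low values 633 genes were lower and 277 higher, with 0 lower members (Cdk9 at adjusted p = 0.0512, limma), 0 recruiters, 1 7SK-binding factor, 0 pausing factors and 1 other kinase or cyclin; the cause was not tested. With libraries centred on their median 2606 genes were lower and 1615 higher. Lower genes then numbered 1 member, 1 recruiter, 1 pausing factor and 3 other kinases and cyclins, with 1 recruiter (Aff1) and 1 pausing factor (Polr2a) higher. Signs turned after centring for Ccnt1 (0.078), Hexim1 (0.10), Jmjd6 (0.13), Supt5 (0.14), Cdk19 (0.15) and Ccnk (0.11). Signs also turned when a library was left out for Hexim1 (-0.51 to 0.048), Ell3 (-0.10 to 0.56) and Ell (-0.0060 to 0.14), none of them called. The log2 difference in ratio ranged from -0.10 to 0.61 for Hexim1 to Cdk9, from -0.087 to 0.068 for the 7SK proteins to P-TEFb, from -0.28 to -0.10 for the cyclins to Cdk9 and from -0.75 to -0.53 for Ccnt2 to Ccnt1.

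Among peaks, the DRB count of 2 loci became 1 at 500 bp, 0 with a score of at least 100 and 1 when 50% of the peak had to lie within reach. With a score of at least 100 the Ser5P counts in shWDR43 became 0 and 0. The Ser2P counts in shCtl libraries 1 and 2 became 0 and 1 at 500 bp, 3 and 4 at 2 kb, 0 and 1 with that score and 0 and 0 with 50% of the peak. When both libraries had to hold a peak, Ser5P in shWDR43 became 3 of 6 loci and Ser2P in shCtl 0. Per library left out, counts ran from 4 to 5 (Ser5P, shWDR43), 1 to 2 (Ser2P, shCtl) and 5 to 6 (hypoP, shWDR43). Read depth is unknown, so a missing peak does not show that the protein was absent.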

Other observations

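Genes within 2 kb of a member did not all move with it. Zcwpw1, a histone methyl reader gene that lies 1100 bases from the higher-coordinate end of Mepce, stood at 4.3 and 3.9 FPKM in shWDR43, against 11.8 and 10.5 FPKM in shCtl. Its groups were far apart, and it was lower (log2 fold change -1.25 ± 0.14, SE, limma, Benjamini-Hochberg adjusted p = 0.00147). Ppp1r35, on the other side of Mepce, stood at 20.5 and 20.4 FPKM in shWDR43, against at most 19.5 FPKM in shCtl, a log2 fold change of 0.16 that did not pass (adjusted p = 0.354, limma). Beside Larp7, 4930422G04Rik stood at 4.0 and 3.1 FPKM in shWDR43, against 6.2 and 4.2 FPKM in shCtl (-0.43, adjusted p = 0.119, limma). Its groups did not overlap but its fall was not past the threshold. Beside Ccnt2, the noncoding 2900009J06Rik stood at 0.6 and 1.0 FPKM in shWDR43, against 1.0 and 3.5 FPKM in shCtl (-0.75, adjusted p = 0.144, limma). These neighbours were chosen by distance after the members' values were seen.

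In the authors' deposited table the signed fold changes of the members, shWDR43 over shCtl, were -1.88 for Ccnt2, -1.70 for Larp7, -1.47 for Mepce, -1.43 for Cdk9, -1.22 for Hexim1 and -1.21 for Ccnt1, where a negative value means lower in shWDR43.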
